A study of Homo sapiens with 24 samples.

Results

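EGR1, EGR2, EGR3, and EGR4 (early growth response zinc finger transcription factors), NAB1 and NAB2 (corepressors that bind EGR proteins), and NR4A1, NR4A2, and NR4A3 (orphan nuclear receptors) were followed in the triple-negative breast cancer line MDA-MB-468 (MB468) and in MDA-MB-468res-R8 (MB468res-R8), derived from it and insensitive to Met stress. These 9 genes, of 26645 gene entries in the count table, were chosen on their measured values, after EGR2 was seen to be high at 0.5 h and the NR4A genes to be low at 12 h. The comparisons of 0.5 h and of 12 h with 0 h are therefore given as descriptions with no test. RNA was sequenced from 24 libraries, 3 in each of 8 groups. At 0 h both lines were in Met+ medium with 100 µM methionine (Met), and at 0.5, 2, and 12 h they were in Met-Hcy+ medium, in which Met was absent and 370 µM DL-homocysteine (Hcy) was added. All groups shared DMEM with dialyzed FBS, vitamin B12, L-glutamine, and L-cysteine. MB468res-R8 is 1 revertant clone, obtained by keeping MB468 in Hcy medium for a long period, so the difference between the lines is that of 1 clone from its parent. No library came from cells switched to fresh Met+ medium for the same times, so a response to the medium change itself cannot be told apart from a response to Met removal. The labels do not say whether the 3 libraries of a group came from separate cultures, so p-values measure the spread between these libraries. A level in a library cannot tell more RNA in every cell from more cells with the RNA.

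Early response genes are transcribed within minutes of a growth factor, serum, or stress signal, without new protein synthesis, and most of their RNAs are short-lived. ERK signaling acts through serum response factor (SRF) and its ternary complex factors on CArG boxes, and cAMP or calcium signaling acts through CREB on cAMP response elements (CREs). EGR proteins bind GC-rich sites in many promoters, that of NAB2 included, and NAB proteins bind EGR1, EGR2, and EGR3 and repress their activity. NR4A receptors have no known natural ligand that is required for activity, and the amount made is often taken as a main control of what they do. Receptor activity was not measured here. EGR1 and NR4A1 are among the most used readouts of acute signaling in epithelial cells.

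The libraries held 11713037 to 36402932 gene counts, with a median of 20452797, and no pair held the same values. The 5 epithelial and 5 basal markers were present in every library: EGFR lay between 47813 and 97317 normalized counts, KRT5 between 35028 and 63300, and EPCAM between 6506 and 9938, while the lowest of the 10 were KRT14, from 1587 to 5865, and FOXC1, from 334 to 2408. PGR, a luminal receptor that triple-negative cells lack, reached at most 2 counts, and ESR1 lay between 94.5 and 513 normalized counts. PTPRC, COL1A2, DCN, and LUM, markers of leukocytes and fibroblasts, reached at most 7 counts, while COL1A1 lay between 331 and 1665 normalized counts and the 3 endothelial markers PECAM1, CDH5, and VWF reached 60.8, 61.3, and 35.6. The summed level of the 8 genes that mark other cell types was 408 to 977 in MB468 and 719 to 1801 in MB468res-R8, and its part in the results was not tested. Replicate 2 of MB468 at 2 h held 8251 counts of the non-polyadenylated RNA RN7SK, against 44 to 357 in the other libraries. Without that library the members called were 8 for the lines at 2 h, 9 for MB468 at 2 h, and 7 for the line difference, as many as with it. With all libraries, 56.1%, 16.3%, and 5.07% of all genes tested were called in these comparisons.

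Promoter sequences are shown for 4 of the members whose windows hold letter matches to the motifs named above. They are the 250 bases before the annotated RefSeq start site on GRCh38.p14, written 5′ to 3′ on the gene's own strand, with matches in capitals: a CRE core (TGACG), an EGR site (GCGNGGGCG), or a CArG box, each searched on both strands. EGR2 had 3 annotated start sites, and the window with the most matches is shown.
EGR1, chr5:138465229-138465478, + strand: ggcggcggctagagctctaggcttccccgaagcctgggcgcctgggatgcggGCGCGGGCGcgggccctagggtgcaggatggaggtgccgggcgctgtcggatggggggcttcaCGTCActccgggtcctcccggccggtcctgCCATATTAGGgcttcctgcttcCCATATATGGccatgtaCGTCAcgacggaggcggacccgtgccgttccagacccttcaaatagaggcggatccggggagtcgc
EGR2, chr10:62816367-62816616, - strand: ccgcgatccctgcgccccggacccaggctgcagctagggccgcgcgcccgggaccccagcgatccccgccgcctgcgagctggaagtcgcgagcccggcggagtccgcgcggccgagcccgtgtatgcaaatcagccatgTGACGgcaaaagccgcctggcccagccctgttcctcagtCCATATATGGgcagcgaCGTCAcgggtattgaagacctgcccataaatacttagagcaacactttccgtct
NAB2, chr12:57088864-57089113, + strand: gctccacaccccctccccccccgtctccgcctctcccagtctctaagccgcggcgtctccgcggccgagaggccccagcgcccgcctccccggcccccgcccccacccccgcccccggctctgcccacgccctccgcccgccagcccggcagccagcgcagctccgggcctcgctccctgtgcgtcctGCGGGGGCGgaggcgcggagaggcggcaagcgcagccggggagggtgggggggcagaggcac
NR4A3, chr9:99821635-99821884, + strand: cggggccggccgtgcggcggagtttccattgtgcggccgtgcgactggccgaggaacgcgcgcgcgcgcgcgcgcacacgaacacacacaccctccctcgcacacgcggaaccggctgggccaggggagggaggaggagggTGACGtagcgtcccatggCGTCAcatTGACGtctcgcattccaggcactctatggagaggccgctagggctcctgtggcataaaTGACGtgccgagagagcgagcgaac
The EGR1 window held an EGR site starting 198 bases before the start site, CRE cores 135 and 66 bases before it, and CArG boxes 105 and 83 bases before it. The EGR2 window held CRE cores 110 and 54 bases before the start site and a CArG box 71 bases before it. NAB2 had an EGR site 62 bases before its start site, and NR4A3 had CRE cores 109, 91, 83, and 25 bases before its own. Among the windows not shown, the 3 of NAB1 held 3, 4, and 0 EGR sites, the first 2 overlapping and sharing 3 of them, with 1 CRE core in each, and that of EGR4 held 2 CRE cores. Another EGR2 window (chr10:62818726-62819025) held an EGR site starting 8 bases after its start site. Of 35116 annotated windows of the same length (these 250 bases and 50 after the start), 24.6% held TGACG, 1.85% the full TGACGTCA, 9.43% the EGR site, and 1.29% a CArG box. None of the windows of the members held the full CRE, and the short CRE core is contained in it, so the counts of the 2 motifs overlap. RefSeq windows were matched for 7 of the 9 members (12 windows), and neither of the 2 NR4A1 windows held any of the 4 motifs. These 2 windows lie upstream, at chr12:52022582-52022881 and chr12:52037465-52037764, in a gene that runs to 52059507. No window at an NR4A1 start site farther downstream was searched, so whether one holds these motifs is not known. These matches describe letters and were not tested as binding sites.

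EGR1 (chr5:138465479-138469303, + strand, GRCh38) was the most abundant member per length at 0.5 h in both lines and the one whose 2 h level differed most between them. The MB468 libraries held 994, 966, and 866 normalized counts (counts scaled to a common library size) at 0 h, and 28276, 28325, and 32487 at 0.5 h. They held 12516, 13172, and 12716 at 2 h and 4495, 4051, and 4048 at 12 h. Every MB468 library in Met-Hcy+ medium thus lay above all 3 in Met+ medium, and the group mean was lower at each time after 0.5 h. The MB468res-R8 libraries held 869, 1048, and 1019 at 0 h and 17628, 19103, and 20082 at 0.5 h. They then held 607, 707, and 644 at 2 h and 179, 288, and 189 at 12 h, below all 3 of their own 0 h libraries. At 2 h EGR1 was 19.5-fold lower in MB468res-R8 than in MB468 (log2 fold change -4.28 ± 0.109 (SE), edgeR quasi-likelihood test, adjusted p = 1.70e-16), with no overlap between the lines. At 0 h the same comparison gave 0.04 ± 0.112 (adjusted p = 0.802), and the 3 libraries of each line overlapped. From 0 h to 2 h EGR1 rose 13.5-fold in MB468 (3.76 ± 0.104, adjusted p = 8.39e-15) and fell by 0.57 on the log2 scale in MB468res-R8 (SE 0.117, adjusted p = 0.00644). The difference between these responses was -4.32 ± 0.155 (adjusted p = 1.13e-12).

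EGR2 (chr10:62811996-62819167, - strand), which drives Schwann cell myelination and is also a T cell regulator, had the largest ratio of highest to lowest group mean among the members, 87.5 in MB468 and 236 in MB468res-R8. MB468 libraries held 17.0, 26.3, and 26.7 normalized counts at 0 h, 2181, 1761, and 2183 at 0.5 h, 169, 130, and 148 at 2 h, and 89.2, 90.6, and 64.0 at 12 h. MB468res-R8 libraries held 23.0, 19.0, and 28.8 at 0 h, 898, 749, and 898 at 0.5 h, 27.7, 32.4, and 26.6 at 2 h, and 3.58, 3.42, and 3.78 at 12 h. The mean at 0.5 h was 87.5 times that at 0 h in MB468 and 35.9 times in MB468res-R8, and the 0.5 h values are among those on which the genes were chosen. Of the EGR2 exon bases 3.91%, and of those of EGR3 3.26%, are shared with long noncoding RNAs. By 2 h the MB468res-R8 libraries overlapped their 0 h libraries, whereas those of MB468 lay above theirs. In the tested comparisons, EGR2 at 2 h was lower in MB468res-R8 by -2.34 ± 0.177 (adjusted p = 1.83e-14), and at 0 h the difference was 0.02 ± 0.258 (adjusted p = 0.966). It rose in MB468 by 2.70 ± 0.187 from 0 h to 2 h (adjusted p = 1.67e-14). In MB468res-R8 the same change was 0.34 ± 0.243 (adjusted p = 0.622), and the responses differed by -2.36 ± 0.322 (adjusted p = 1.57e-06).

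EGR3 (chr8:22687659-22693480, - strand), a close relative of EGR1 that is itself induced by EGR1 and by calcium signaling, was highest at 0.5 h in both lines, and its mean then was 1.51 times that at 2 h in MB468 and 2.31 times in MB468res-R8. Its MB468 libraries held 305, 242, and 357 at 0 h, 3936, 3091, and 3334 at 0.5 h, 2409, 2240, and 2210 at 2 h, and 321, 290, and 285 at 12 h. In MB468res-R8 they held 203, 245, and 139, then 1108, 829, and 908, then 447, 494, and 289, and at 12 h 4.47, 9.11, and 9.44. At 12 h the MB468 libraries overlapped those at 0 h, while the MB468res-R8 libraries lay far below all of theirs. EGR3 at 2 h was lower in MB468res-R8 by -2.44 ± 0.173 (adjusted p = 1.37e-09). It rose from 0 h to 2 h in both lines, by 2.95 ± 0.182 in MB468 (adjusted p = 1.62e-09) and 1.09 ± 0.212 in MB468res-R8 (adjusted p = 0.00425), and the rises differed by -1.86 ± 0.286 (adjusted p = 0.000466). The call in MB468res-R8 was lost without its replicate 2 at 2 h (adjusted p = 0.0575) and with only the groups compared in the model (adjusted p = 0.212). At 0 h it was lower in MB468res-R8 by -0.58 ± 0.224 (adjusted p = 0.0385), but the libraries of the lines overlapped. That call was lost without replicate 1 or 3 of MB468 or without replicate 1 or 3 of MB468res-R8 at 0 h, with adjusted p of 0.0932, 0.116, 0.0734, and 0.152.

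EGR4 (chr2:73290929-73293701, - strand) was among the least abundant members per length. Its MB468 libraries lay between 80.5 and 130 at 0 h, 317 and 400 at 0.5 h, 287 and 340 at 2 h, and 39.3 and 48.5 at 12 h. The MB468res-R8 libraries lay between 43.1 and 64.9, 98.0 and 120, 72.9 and 99.2, and 0.894 and 4.72. At 2 h it was lower in MB468res-R8 by -1.89 ± 0.161 (adjusted p = 3.82e-13), and at 0 h by -0.86 ± 0.182 (adjusted p = 0.000103). It rose in MB468 by 1.61 ± 0.158 (adjusted p = 1.58e-10). In MB468res-R8 the change was 0.59 ± 0.185 (adjusted p = 0.0646) although all 3 libraries at 2 h lay above those at 0 h, and the responses differed by -1.03 ± 0.245 (adjusted p = 0.00588).

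At 12 h the lines stood apart in all 4 EGR genes. The mean in MB468 was 19.2 times that in MB468res-R8 for EGR1, 22.6 times for EGR2, 38.9 times for EGR3, and 19.4 times for EGR4, and no library of one line overlapped the other. Without replicate 3 of MB468res-R8, whose 4.72 stood above the 0.894 and 1.14 of the others, the fitted log2 difference for EGR4 was -5.23 in place of -4.17. The counts behind the MB468res-R8 values were low: 11 for EGR2, 23 for EGR3, and 7 for EGR4 over 3 libraries. The ratio of the 0 h to the 12 h level in MB468res-R8, from the summed counts, was 6.47 for EGR2 (95% Clopper-Pearson interval 3.40 to 13.6), 26.4 for EGR3 (17.4 to 42.0), and 25.4 for EGR4 (12.1 to 64.2). These intervals cover counting error only and leave out the spread between libraries. The EGR4 libraries of MB468res-R8 at 12 h held 1, 1, and 5 counts. The intervals are not a test, since comparisons of 12 h with 0 h are among those on which the genes were chosen. In MB468 the fitted log2 fold change from 0 h to 12 h was 2.15 for EGR1 and 1.79 for EGR2, 0.02 for EGR3, and -1.28 for EGR4.

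**Figure D1:**
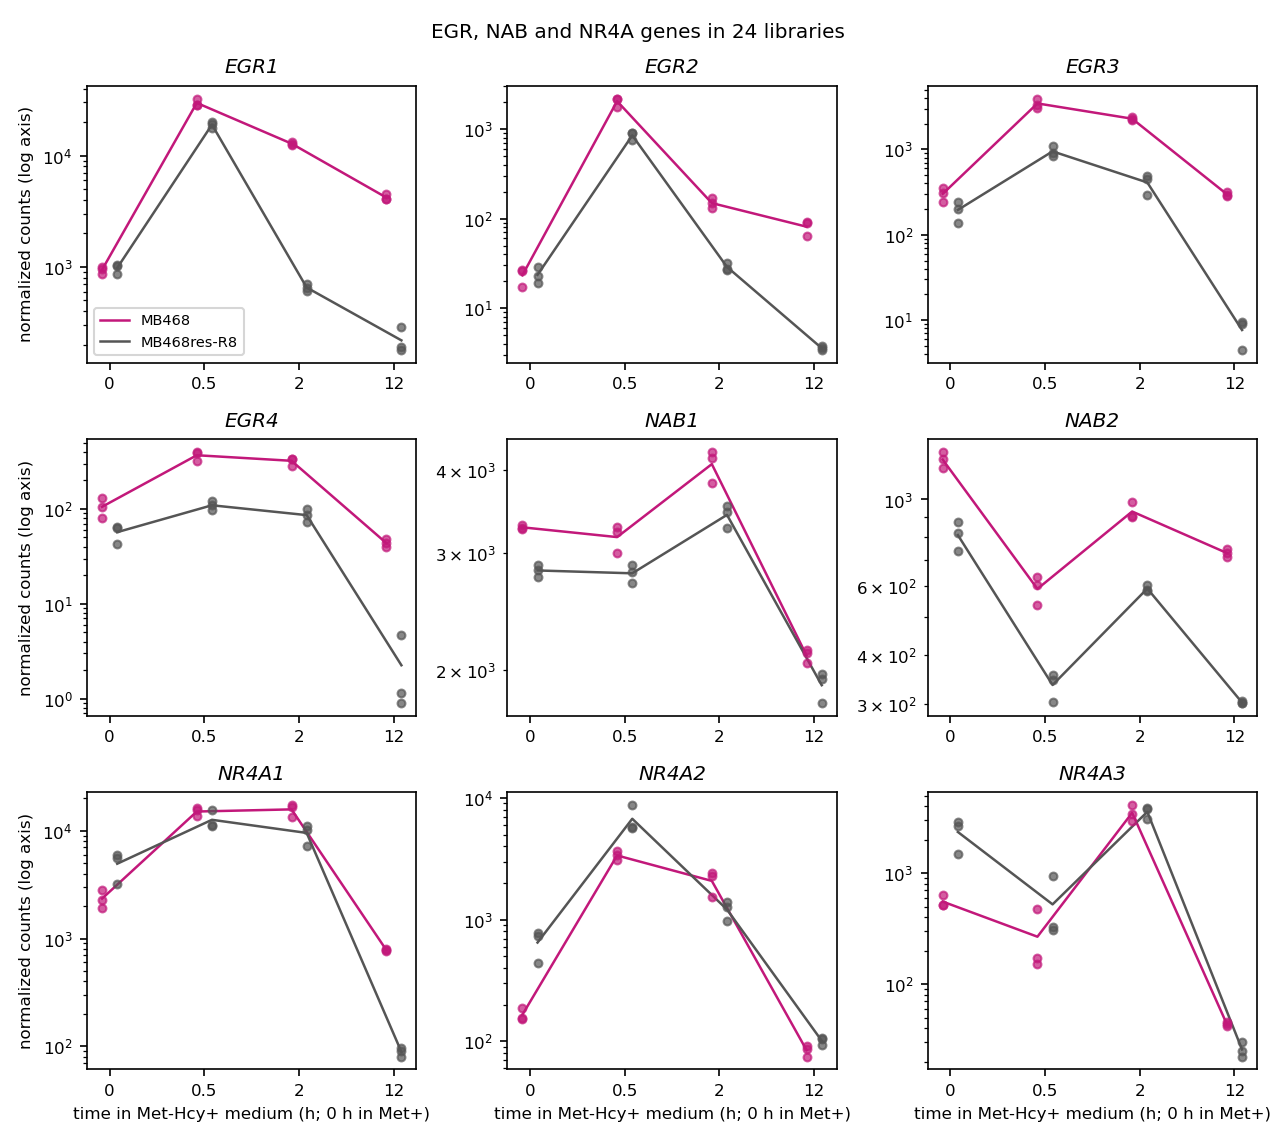
Normalized counts (log axis) of the 9 genes against hours in Met-Hcy+ medium (0 h is Met+ medium, times evenly spaced), with 1 point per library and a line through the group means for MB468 (magenta) and MB468res-R8 (gray). EGR1 in MB468 is at 4048 or more from 0.5 h to 12 h while all MB468res-R8 libraries are at 707 or less from 2 h on, and NAB1 stays between 1783 and 4256 throughout.

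NAB1 (chr2:190646746-190692766, + strand) and NAB2 (chr12:57089043-57095476, + strand), the repressors of EGR activity, covered a narrower range. NAB1 lay between 3256 and 3308 at 0 h and between 3821 and 4256 at 2 h in MB468, and between 2764 and 2873 and 3274 and 3532 in MB468res-R8. It rose by 0.32 ± 0.0451 in MB468 (adjusted p = 8.89e-07) and 0.28 ± 0.0450 in MB468res-R8 (adjusted p = 3.47e-05), but with the spike-in totals as library sizes the MB468 value turned to -0.11 (adjusted p = 0.464) and that of MB468res-R8 was not called. At 12 h both lines lay below their 0 h libraries, at 2049 to 2141 in MB468 and 1783 to 1972 in MB468res-R8.

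NAB2, itself known as a target of EGR1, was lower at each time in Met-Hcy+ medium than in Met+ medium, in both lines. Its MB468 libraries held 1265, 1204, and 1324 at 0 h, 603, 536, and 633 at 0.5 h, 904, 983, and 908 at 2 h, and 746, 730, and 713 at 12 h. The MB468res-R8 libraries held 820, 739, and 873, then 357, 304, and 346, then 589, 584, and 603, and finally 301, 302, and 305. In both lines the 3 libraries at 0.5 h were below all those at 0 h, at the time when EGR1 stood highest. From 0 h to 2 h NAB2 fell by 0.44 on the log2 scale in MB468 (SE 0.0672, adjusted p = 2.90e-06) and fell by 0.45 in MB468res-R8 (SE 0.0693, adjusted p = 1.24e-05). The difference between these responses was -0.01 ± 0.0963 (adjusted p = 0.977) for NAB2 and -0.04 ± 0.0636 (adjusted p = 0.868) for NAB1, the 2 members whose 2 h responses were not called different. Both genes were lower in MB468res-R8 at 2 h, NAB1 by -0.25 ± 0.0449 (adjusted p = 8.47e-06) and NAB2 by -0.65 ± 0.0705 (adjusted p = 2.13e-10). They were lower at 0 h as well, by -0.21 ± 0.0451 (adjusted p = 9.93e-05) and -0.64 ± 0.0661 (adjusted p = 7.32e-11). The NAB2 exons share 2.41% of their bases with STAT6 on the opposite strand and those of NAB1 share 12.3% with antisense RNAs, and the library kit does not mark strand, so their reads cannot be told apart there.

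NR4A1 (chr12:52022832-52059507, + strand), NR4A2 (chr2:156324437-156342348, - strand), and NR4A3 (chr9:99821855-99866891, + strand) were higher in MB468res-R8 than in MB468 before the medium was changed and lower in both lines at 12 h than at 0 h. NR4A1 libraries of MB468 held 2816, 1937, and 2292 normalized counts at 0 h, 15564, 13574, and 16136 at 0.5 h, 17345, 13392, and 16663 at 2 h, and 805, 765, and 785 at 12 h. Those of MB468res-R8 held 6001, 5640, and 3202, then 15493, 11087, and 11370, then 10200, 11171, and 7296, and at 12 h 80.5, 95.7, and 90.6. NR4A1 was thus high in both lines at 0.5 and 2 h and lowest at 12 h, when MB468 stood at 8.83 times the MB468res-R8 mean. At 0 h it was higher in MB468res-R8 by 1.08 ± 0.219 (adjusted p = 0.000451), and at 2 h lower by -0.72 ± 0.205 (adjusted p = 0.00629), although with the spike-in totals as library sizes the latter was -0.64 and not called (adjusted p = 0.0754). It rose from 0 h to 2 h by 2.75 ± 0.223 in MB468 (adjusted p = 7.09e-08) and 0.95 ± 0.209 in MB468res-R8 (adjusted p = 0.0114), and these differed by -1.81 ± 0.300 (adjusted p = 0.00101). Of its exon bases, 10.3% are shared with the antisense RNA NR4A1AS.

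NR4A2, known for its part in making dopamine neurons, had a higher level in MB468res-R8 than in MB468 at 0 and 0.5 h, a lower one at 2 h, and a slightly higher one at 12 h. MB468 libraries held 188, 152, and 156 at 0 h, 3636, 3064, and 3397 at 0.5 h, 2266, 1539, and 2435 at 2 h, and 75.1, 87.4, and 91.9 at 12 h. MB468res-R8 libraries held 770, 737, and 438, then 8740, 5709, and 5766, then 1267, 1388, and 981, and 104, 93.4, and 107 at 12 h. At none of these times did the lines overlap, but at 12 h the nearest libraries stood at 91.9 and 93.4. With the spike-in totals as library sizes, 0 members were higher in MB468res-R8 without overlap at 12 h, so NR4A2 no longer stood apart there. At 0 h the difference was 1.99 ± 0.291 (adjusted p = 1.65e-05), and at 2 h it was -0.78 ± 0.205 (adjusted p = 0.00382). NR4A2 rose by 3.66 ± 0.266 in MB468 (adjusted p = 1.68e-08) and 0.89 ± 0.221 in MB468res-R8 (adjusted p = 0.0255) from 0 h to 2 h, and the rises differed by -2.77 ± 0.356 (adjusted p = 7.25e-05).

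NR4A3 was the NR4A gene that was lower at 0.5 h than at 0 h. MB468 libraries held 633, 520, and 514 at 0 h, 480, 151, and 173 at 0.5 h, 3417, 2973, and 4115 at 2 h, and 44, 45.3, and 41.8 at 12 h. MB468res-R8 libraries held 2918, 2640, and 1502, then 938, 310, and 325, then 3765, 3861, and 3096, and 22.4, 25.1, and 30.2 at 12 h. Replicate 1 stood high at 0.5 h in both lines. The 0 h mean was 2.07 times the 0.5 h mean in MB468 and 4.49 times in MB468res-R8, and 3.43 and 7.41 times without those libraries, a comparison added after the values were seen. At 0 h NR4A3 was higher in MB468res-R8 by 2.09 ± 0.361 (adjusted p = 9.83e-05), whereas at 2 h the lines overlapped and differed by 0.03 ± 0.313 (adjusted p = 0.948). It rose by 2.66 ± 0.362 in MB468 from 0 h to 2 h (adjusted p = 4.00e-05), and in MB468res-R8 the change was 0.60 ± 0.314 (adjusted p = 0.448), with all 3 libraries above those at 0 h. These responses differed by -2.06 ± 0.478 (adjusted p = 0.0157), a call lost without replicate 2 of MB468 (adjusted p = 0.0529) or replicate 1 of MB468res-R8 (adjusted p = 0.0537) at 0 h.

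Replicate 3 of MB468res-R8 was the lowest of its group at 0 h and again at 2 h for each of the 3 NR4A genes and for EGR3 and EGR4. Without its 0 h library the rises of NR4A1 and NR4A2 in MB468res-R8 were 0.72 and 0.70 on the log2 scale and were not called (adjusted p = 0.0552 and 0.137). They were not called either without replicate 2 at 2 h (adjusted p = 0.0907 and 0.176) or with only the groups compared in the model (adjusted p = 0.317 and 0.254), and that of NR4A2 was lost without replicate 1 at 2 h (adjusted p = 0.0786).

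Across the 9 genes, the comparison of the lines at 2 h is the one that shares no library with those on which the genes were chosen. In it, edgeR called 8 members lower and 0 higher in MB468res-R8, where 28.7% of the 14741 genes tested were lower and 27.4% higher. The 0 higher stayed 0 at an unadjusted p under 0.05 and with DESeq2. At 0 h, 3 members (the NR4A genes) were higher and 4 (EGR3, EGR4, NAB1, and NAB2) lower, where 26.4% and 27.1% of all genes were. From 0 h to 2 h in MB468, 8 members rose and 1 (NAB2) fell, where 8.88% and 7.47% of genes did. In MB468res-R8, 4 rose (EGR3, NAB1, NR4A1, and NR4A2) and 2 fell (EGR1 and NAB2), where 2.52% and 1.85% of genes did. The response in MB468res-R8 was lower than that in MB468 for 7 members and higher for 0 (0 also at an unadjusted p under 0.05 and with DESeq2), where 2.88% and 2.19% of genes were called lower and higher. These last 4 comparisons share the 0 h libraries with those that chose the genes, and they are not independent of each other. With the spike-in totals as library sizes, the median over all genes shifted by -0.42 on the log2 scale for MB468 from 0 h to 2 h and by 0.38 for the line difference, and the members called in MB468res-R8 from 0 h to 2 h went from 6 to 3. The count over all genes in that comparison went from 644 to 180.

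**Figure D2:**
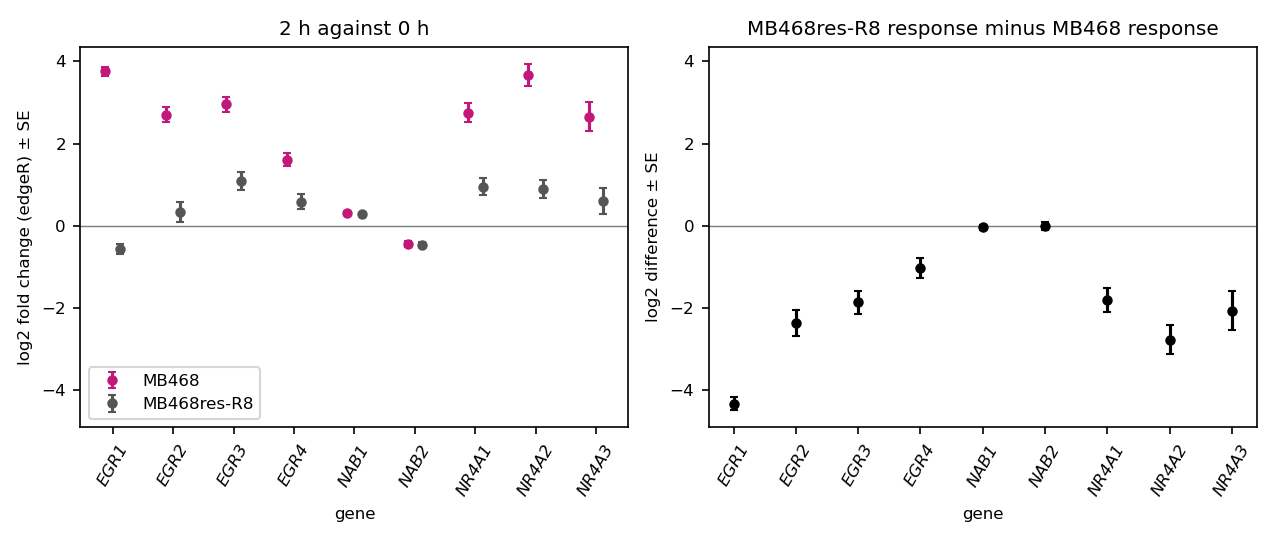
Fitted log2 fold change from 0 h to 2 h in each line (left) and the MB468res-R8 response minus the MB468 response (right) for each gene, with SE bars derived from the edgeR F statistic (3 libraries a group). The 4 EGR and 3 NR4A genes lie below 0 on the right, from -1.03 for EGR4 to -4.32 for EGR1, and the NAB genes lie near 0.

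The counts for the comparisons that chose the genes are given as a description. At 0.5 h, 6 members had all 3 libraries above those at 0 h and 2 (NAB2 and NR4A3) below in MB468, where 22.3% and 21.1% of all genes did so, and the same numbers, 6 and 2, were found in MB468res-R8, where 22.9% and 22.1% of genes did. At 12 h in MB468, 2 members (EGR1 and EGR2) lay above and 6 below, against 38.6% and 36.4% of genes, and in MB468res-R8 0 lay above and 9 below, against 31.9% and 32.7%. Between the lines at 0.5 h, 1 member (NR4A2) was higher and 6 were lower in MB468res-R8 without overlap, against 27.3% and 27.5% of genes, and at 12 h 1 (NR4A2) was higher and 8 were lower, against 34.8% and 40.5%. With the spike-in totals as library sizes, 1 was higher and 5 lower at 0.5 h, and 0 and 7 at 12 h. These line counts at 0.5 and 12 h use libraries that chose the genes.

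**Figure D3:**
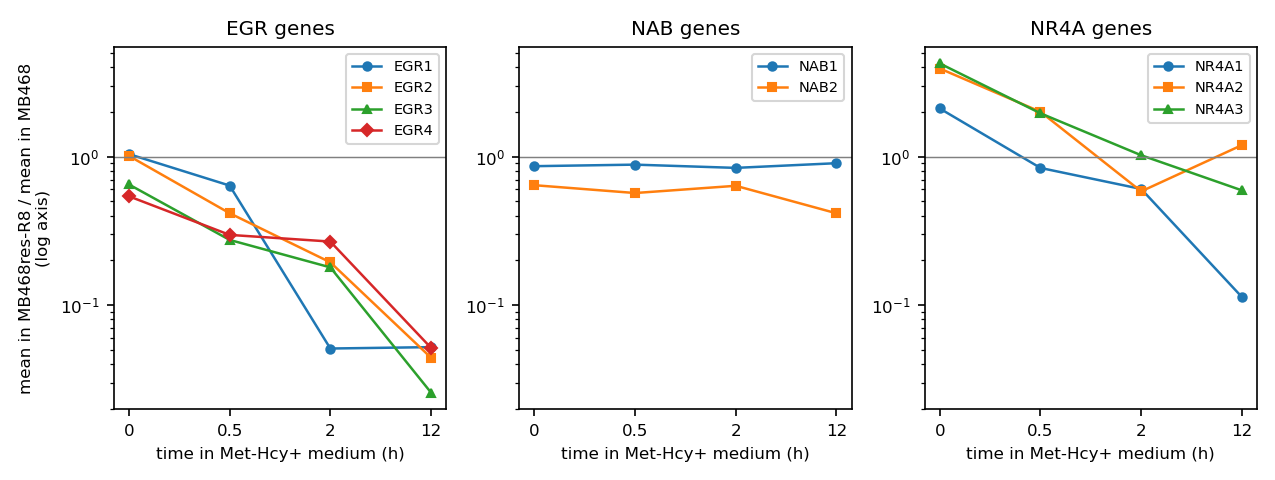
Mean normalized count in MB468res-R8 divided by that in MB468 (log axis) against hours after the medium switch, by gene family. The EGR1 ratio goes from 1.04 at 0 h to 0.638, 0.0510, and 0.0521 at 0.5, 2, and 12 h, and that of NR4A3 from 4.24 at 0 h to 1.02 at 2 h and 0.592 at 12 h.

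Within each family the mix of members differed between times and lines when levels were set per exon length (RPKM, counts scaled for exon length and library size). EGR1 made up 73.1% ± 4.18 (SD, n = 3) of the EGR signal per length in MB468 and 81.8% ± 3.55 in MB468res-R8 at 0 h. In MB468 it was 87.2% ± 1.51 at 0.5 h, 86.6% ± 0.824 at 2 h, and 93.1% ± 0.408 at 12 h. In MB468res-R8 it was 92.8% ± 1.08, 62.6% ± 5.12, and 95.1% ± 2.28, so that at 2 h EGR3, with 24.2% ± 4.40, and EGR4, with 10.9% ± 1.50, held more of the family than in MB468 (9.65% ± 0.553 and 2.88% ± 0.248). The summed EGR signal at 2 h was 207 ± 4.22 RPKM in MB468 and 14.7 ± 1.50 RPKM in MB468res-R8.

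NR4A1 held 71.3% ± 2.03 of the NR4A signal per length in MB468 at 0 h and 79.6% ± 1.54 at 12 h. In MB468res-R8 it held 56.1% ± 0.272 at 0 h and 29.8% ± 2.77 at 12 h, when NR4A2 held 60.2% ± 3.16. NR4A2 was therefore the leading NR4A gene per length in 1 of the 8 groups, MB468res-R8 at 12 h, where the family summed to 1.80 ± 0.0852 RPKM. NR4A3 held 19.7% ± 1.48 in MB468 and 30.8% ± 0.554 in MB468res-R8 at 0 h but 1.42% ± 0.899 and 2.25% ± 0.977 at 0.5 h. The NR4A1 exon length includes alternative first exons far upstream, and these bases enter its share per length. It was 7295 bases against 4111 for NR4A2, and a shorter length would raise the NR4A1 share. In MB468res-R8 at 12 h the mean normalized counts were 88.9 for NR4A1 and 101 for NR4A2. The lead of NR4A2 per length there therefore depends on the lengths used.

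**Figure D4:**
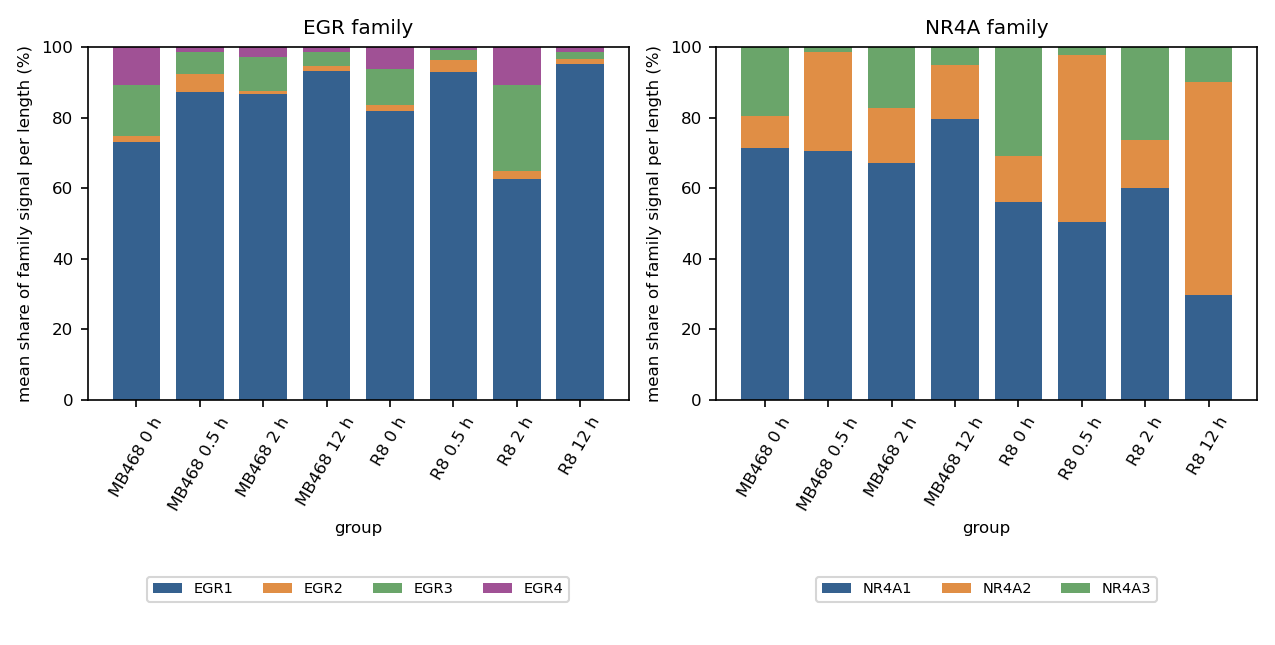
Mean share of each gene in the summed signal per exon length (RPKM) of its family, in percent, for the EGR family (left) and the NR4A family (right) in 8 groups of 3 libraries (R8 stands for MB468res-R8). EGR1 holds 62.6% at 2 h in MB468res-R8 against 86.6% in MB468, and NR4A2 holds 60.2% at 12 h in MB468res-R8.

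The order of the levels per length also differed. It used the same exon lengths, so a shorter NR4A1 length could raise the rank of NR4A1 here too. In Met+ medium NAB1 led in MB468 at 29.5 ± 0.246 RPKM, followed by NAB2 at 19.4 ± 0.920, NR4A1 at 14.2 ± 2.66, and EGR1 at 13.2 ± 0.946, and the last 2 did not differ beyond their spread. EGR2 was last at 0.277 ± 0.0647. In MB468res-R8 NR4A1 at 29.8 ± 9.17 and NAB1 at 25.4 ± 0.493 led, within the spread of the former. At 0.5 h EGR1 led in both lines, at 416 ± 33.9 RPKM in MB468 and 265 ± 17.3 in MB468res-R8, and NR4A1 was next at 90.9 ± 8.10 and 76.2 ± 14.9. In MB468res-R8 NR4A2, at 72.1 ± 18.5, lay within the spread of NR4A1. At 2 h EGR1 still led in MB468 at 179 ± 4.71 but stood behind NR4A1, NAB1, NR4A3, and NR4A2 in MB468res-R8 at 9.14 ± 0.709, within its spread of NAB2 at 9.09 ± 0.149. At 12 h EGR1 led in MB468 at 58.8 ± 3.61, and NAB1 led in MB468res-R8 at 17.1 ± 0.910.

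Most other early response genes were called in the direction of the EGR and NR4A genes at 2 h in MB468. Their list, like the other gene lists below, was chosen with earlier results of these data known, so its counts are a description. Of 30 genes listed (29 tested; ARC was not), edgeR called 26 higher and 0 lower in MB468 from 0 h to 2 h (0 lower also at an unadjusted p under 0.05 and with DESeq2), with a median log2 fold change of 1.14 against 0.01 over all genes tested, of which 8.88% were called higher and 7.47% lower. KLF10 (a TGF-beta-inducible repressor) rose by 1.41 ± 0.0576, PPP1R15A (which directs phosphatase to eIF2α) by 1.26 ± 0.0524, and TRIB1 (a pseudokinase) by 1.23 ± 0.0515 (adjusted p = 1.21e-21 for each). In MB468res-R8, 8 rose and 5 fell, with a median of -0.01 against 0.00 over all genes (2.52% higher and 1.85% lower), and the AP-1 subunit JUNB fell by 0.85 (SE 0.0662, adjusted p = 5.32e-10). ZFP36, which binds AU-rich RNA and speeds its decay, fell by 0.69 (SE 0.0724, adjusted p = 4.52e-09), and MCL1, a survival protein of the BCL2 family, rose by 0.48 ± 0.0423 (adjusted p = 5.58e-11). The responses differed for 25 of the 29 genes: 24 were lower in MB468res-R8 and 1, MCL1, was higher, where 2.88% and 2.19% of all genes were. ZFP36 had a difference of -2.23 ± 0.0980 (adjusted p = 4.47e-20), KLF10 of -1.65 ± 0.0828 (adjusted p = 4.46e-18), and TRIB1 of -1.34 ± 0.0737 (adjusted p = 3.12e-17). At 2 h, 2 of the list were higher and 23 lower in MB468res-R8 (background 27.4% and 28.7% of all genes). At 0 h 16 were higher and 3 lower (26.4% and 27.1%), KLF4 by 1.83 ± 0.129 (adjusted p = 6.63e-12) and KLF6 by 1.19 ± 0.0509 (adjusted p = 3.04e-21) among the higher. At 0.5 h, as a description, 26 of the 29 lay above their 0 h libraries and 3 below in MB468 (22.3% and 21.1% of all genes). For MB468res-R8 these counts were 24 and 4 (22.9% and 22.1%). Medians on the log2 scale were 1.33 for MB468 and 1.42 for MB468res-R8. Between the lines, 12 were then higher and 9 lower in MB468res-R8 without overlap (27.3% and 27.5%). The 2 h difference thus followed a rise at 0.5 h in both lines.

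**Figure D5:**
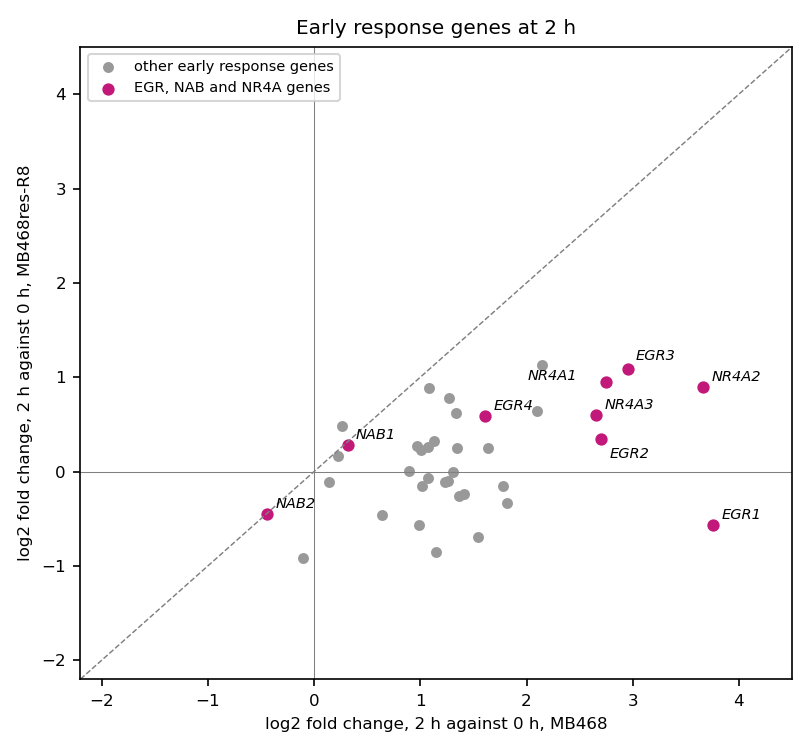
Fitted log2 fold change from 0 h to 2 h in MB468 (x axis) against that in MB468res-R8 (y axis) for the 9 members (magenta) and 29 other early response genes (gray), with the dashed line marking equal responses. EGR1 lies at 3.76 and -0.57, farthest below the line, and NAB1 and NAB2 lie close to it.

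Genes of the signal transducers upstream differed more often between the lines than between 0 h and 2 h within a line, as did all genes. Of 15 genes for SRF, its cofactors, ternary complex factors, and the ERK cascade, 0 rose and 1 fell in MB468 from 0 h to 2 h (0 higher also at an unadjusted p under 0.05 and with DESeq2). That gene was MRTFA, an actin-regulated cofactor of SRF, which fell by 0.45 (SE 0.0469, adjusted p = 9.18e-10). In MB468res-R8 edgeR called 0 in either direction, with 1 higher and 1 lower at an unadjusted p under 0.05 and 0 and 1 with DESeq2. Between the lines, SRF itself was lower in MB468res-R8 by -0.94 ± 0.0540 at 0 h (adjusted p = 2.13e-17) and -0.93 ± 0.0546 at 2 h (adjusted p = 3.74e-17). BRAF, a kinase of the ERK cascade, was lower by -0.71 ± 0.0860 at 0 h (adjusted p = 4.00e-09) and -0.90 ± 0.0888 at 2 h (adjusted p = 1.73e-11), and MRTFA was higher by 0.35 ± 0.0443 (adjusted p = 1.16e-08) and 0.66 ± 0.0467 (adjusted p = 1.74e-15). The response of MRTFA differed between the lines by 0.31 ± 0.0643 (adjusted p = 0.00133). In all, 4 of the 15 were higher and 5 lower at 2 h (27.4% and 28.7% of all genes), and 3 and 5 at 0 h (26.4% and 27.1% of all genes), so these counts sit near the background. The within-line counts at 2 h stand against 8.88% higher and 7.47% lower in MB468 and 2.52% and 1.85% in MB468res-R8. At 0.5 h, as a description, 4 of the 15 lay above their 0 h libraries and 3 below in MB468 (22.3% and 21.1% of all genes). In MB468res-R8, 4 lay above and 4 below (22.9% and 22.1%). SRF was below in both lines, with means of 2732 at 0.5 h against 4973 at 0 h in MB468 and 1763 against 2593 in MB468res-R8.

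Of 15 cAMP pathway and CREB cofactor genes, 2 rose and 1 fell in MB468 from 0 h to 2 h, where 8.88% and 7.47% of all genes did. PDE4B, a phosphodiesterase that degrades cAMP and is itself induced by it, rose by 1.44 ± 0.110 (adjusted p = 1.41e-13) in MB468 and by 0.55 ± 0.0918 (adjusted p = 5.86e-05) in MB468res-R8, where it was the 1 gene called higher. It was higher in MB468res-R8 at 0 h by 1.48 ± 0.106 (adjusted p = 2.54e-15), and the responses differed by -0.89 ± 0.143 (adjusted p = 2.96e-05). CRTC3, a CREB coactivator, rose in MB468 by 0.30 ± 0.0677 (adjusted p = 0.00124) with a line difference of -0.34 ± 0.0924 (adjusted p = 0.0200), and EP300, a histone acetyltransferase, fell by 0.19 (SE 0.0445, adjusted p = 0.00201). CREM, a CREB relative with cAMP-inducible repressor forms, was higher in MB468res-R8 by 0.65 ± 0.0743 at 0 h (adjusted p = 8.17e-10) and 0.48 ± 0.0767 at 2 h (adjusted p = 1.34e-06). At 0 h 7 of the 15 were higher and 3 lower in MB468res-R8 (background 26.4% and 27.1% of all genes), and at 2 h 5 and 4, near the background of 27.4% and 28.7%.

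Of 15 genes reported as EGR1 targets, 7 rose and 1 fell in MB468 from 0 h to 2 h, and 3 rose and 4 fell in MB468res-R8. Over all genes, 8.88% and 7.47% did in MB468 and 2.52% and 1.85% in MB468res-R8. GADD45B, a stress sensor, rose in MB468 by 1.40 ± 0.0549 (adjusted p = 1.21e-21), and its response differed between the lines by -1.63 ± 0.0779 (adjusted p = 2.95e-18). VEGFA, the angiogenic growth factor, rose by 0.60 ± 0.0463 in MB468 (adjusted p = 1.92e-13) and fell by 0.28 in MB468res-R8 (SE 0.0461, adjusted p = 4.47e-05), a difference of -0.88 ± 0.0653 (adjusted p = 2.13e-13). PDGFB, a growth factor gene, fell in both, by 0.65 in MB468 (SE 0.0589, adjusted p = 1.61e-11) and by 0.75 in MB468res-R8 (SE 0.0563, adjusted p = 1.44e-12). CCND1, the cyclin of early G1, rose by 0.57 ± 0.0473 in MB468res-R8 (adjusted p = 2.07e-11). The responses of 4 of the 15 were lower in MB468res-R8, GADD45A (-0.77 ± 0.113, adjusted p = 2.84e-05) and ICAM1 (-0.28 ± 0.0832, adjusted p = 0.0347) being the others. None was called higher by edgeR, with 1 at an unadjusted p under 0.05 and 1 with DESeq2. Over all genes, 2.88% were called lower and 2.19% higher. ICAM1, a leukocyte adhesion receptor, was lower in MB468res-R8 at 0 h by -1.33 ± 0.0587 (adjusted p = 6.78e-22) and at 2 h by -1.62 ± 0.0593 (adjusted p = 1.79e-24). At 0 h, 10 of the 15 were higher and 2 lower in MB468res-R8 (background 26.4% and 27.1% of all genes), and at 2 h 6 and 3 (27.4% and 28.7%). At 0.5 h, as a description, 3 of the 15 lay above their 0 h libraries and 7 below in MB468, against 22.3% and 21.1% of all genes. In MB468res-R8, 2 lay above and 8 below, against 22.9% and 22.1%. These genes are targets of many other factors too, and the median of the list in MB468 at 2 h was 0.18.

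Of 12 genes for proteins that partner NAB and NR4A proteins (11 tested; RXRG was not), edgeR called 1 in MB468 from 0 h to 2 h, CHD4, the NuRD helicase that binds NAB2, which fell by 0.13 (SE 0.0363, adjusted p = 0.0118). In MB468res-R8 and for the line difference it called 0, with 1 gene each at an unadjusted p under 0.05 and 0 with DESeq2. Over all genes tested, 16.3% were called in MB468, 4.37% in MB468res-R8, and 5.07% for the line difference, so these counts sit near the background. CHD4 was higher in MB468res-R8 by 0.22 ± 0.0358 at 0 h (adjusted p = 2.16e-06) and 0.33 ± 0.0362 at 2 h (adjusted p = 3.27e-10). CHD3, its close relative, was higher by 0.20 ± 0.0384 at 0 h (adjusted p = 2.51e-05) and 0.20 ± 0.0388 at 2 h (adjusted p = 2.47e-05), and the NuRD subunits RBBP4 and MTA2 were lower by -0.16 ± 0.0396 and -0.15 ± 0.0394 at 0 h (adjusted p = 0.000991 and 0.00172) and by -0.25 ± 0.0401 and -0.09 ± 0.0400 at 2 h (adjusted p = 1.21e-06 and 0.0468). RXRA, the retinoid receptor with which NR4A1 and NR4A2 form dimers, was higher at 2 h by 0.20 ± 0.0603 (adjusted p = 0.00553). Of the 11 genes, 3 were higher and 2 lower in MB468res-R8 at 2 h (background 27.4% and 28.7% of all genes). At 0 h 2 were higher and 2 lower (26.4% and 27.1%).

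The genes whose log2 CPM (counts scaled to library size) over the 24 libraries were most like those of the members are given as a description, since the libraries share lines and times. EGR1 was most like ZFP36L1 (Pearson r = 0.98), MAML2 (0.96), and RHOB (0.95), and EGR2 was also most like ZFP36L1 (0.98). EGR3 and EGR4 were most like CTGF (0.97 and 0.98), NAB1 most like GCNT2 (0.97), and NAB2 most like EPPK1 (0.96). NR4A1 was most like SASH1 (0.97), FOSB (0.97), and PRKCE (0.96), NR4A2 most like SIK1 (0.97), and NR4A3 most like PER1 (0.96). Among the members themselves r was 0.96 between EGR1 and EGR2 and 0.97 between EGR3 and EGR4, but 0.12 between EGR1 and NR4A3 and 0.04 between EGR1 and NAB2.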

How the data were processed

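Poly(A) RNA of MB468 and MB468res-R8 cells was sequenced as single-end reads with spike-ins, in 24 libraries (3 per group, 8 groups). The authors aligned reads to GRCh38/hg38 with the spike-in sequences using HISAT2 2.1.0 and counted them per gene with featureCounts (Subread 1.5.3 in the submitters' processing notes), and the deposited table holds raw counts. The deposited table of normalized values and the authors' table of their own comparisons (fold change, SE, statistic, p, and adjusted p) were not used. The 26645 gene entries went into edgeR 4.0.16 (R 4.3.3): the 92 spike-ins were set aside, filterByExpr (minimum count 10, minimum total 15) kept 14741 genes with all 9 members among them, TMM factors scaled the libraries, and a robust quasi-likelihood model with a mean per group gave each comparison. Calls were made below an adjusted p of 0.05, by Benjamini and Hochberg over all genes tested. Each SE of a log2 fold change was derived as its absolute value divided by the square root of the F statistic. It thus rests on a spread estimated over all groups. Lengths and positions came from GENCODE on GRCh38. With 3 libraries a group and 11713037 to 36402932 counts a library, members at a few counts are imprecise.

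The members and the gene lists were chosen with earlier results of these data known. All 9 members were named, with up to 3 genes per list and comparison by smallest p (all where 5 or fewer were called) and the genes most like each member. Replicate numbers were checked as pairs over 6391 genes: the mean correlation of same-numbered libraries was -0.0136 and -0.0693 between the lines at 2 and 0 h, 0.0248 within MB468, and 0.277 within MB468res-R8, and not every pair was above 0.1, so they were not treated as pairs. Alternatives were DESeq2 1.42.0 size factors and its Wald test, spike-in totals, no filter, only the groups compared, a replicate block, and each library left out. The comparisons of the lines at 0.5 and 12 h were chosen after seeing the data. The fit was tested on simulated data, and the pass criterion of that test was loosened once, after its first run did not meet it.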

Additional observations from a re-analysis of the deposited data

Results flagged for a closer look

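The response from 0 h to 2 h differed between the lines in 7 of the 9 genes by the interaction contrast of the edgeR model, given as MB468res-R8 minus MB468 on the log2 scale. Of all genes tested, 5.07% were called in it. The differences were -4.32 for EGR1, -2.36 for EGR2, -1.86 for EGR3, -1.03 for EGR4, -1.81 for NR4A1, -2.77 for NR4A2, and -2.06 for NR4A3. The calls for EGR4 and NR4A3 were lost with the spike-in totals as library sizes.

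At 12 h, every library of MB468 lay above its 0 h libraries and every library of MB468res-R8 lay below its own for EGR1 and EGR2. The fitted responses differed by -4.33 for EGR1 and -4.45 for EGR2, and these differences were not tested, since the comparisons at 12 h share libraries with those on which the genes were chosen.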

How the results depend on the processing

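In MB468res-R8 from 0 h to 2 h, 6 members were called. With the spike-in totals as library sizes 3 were, and 3 with only the groups of the comparison in the model. Without the low-count filter 8 were called (EGR4, adjusted p = 0.0214, and NR4A3 added), and the cause was not tested. Of all genes, 644 were called in the main fit, 180 with the spike-in totals, 551 with only those groups, and 806 without the filter. Leaving out 1 library at a time gave 3 to 7 members in that comparison, with 3 without replicate 2 at 2 h (348 of all genes called). It gave 8 for the lines at 2 h in each case, 6 to 7 for the lines at 0 h, 9 for MB468, and 6 to 7 for the line difference. In the main fit, 56.1%, 53.5%, 16.3%, and 5.07% of all genes tested were called in these comparisons. Where an arm kept 2 libraries, the model pooled the spread over all groups. NAB1 in MB468 at 2 h turned to -0.11 with the spike-in totals (adjusted p = 0.464). With those totals NAB1 and NR4A1 between the lines at 2 h, NAB1, NR4A1, and NR4A2 in MB468res-R8, and EGR4 and NR4A3 for the line difference also lost their calls. With only the groups compared, NR4A2 between the lines at 2 h and EGR3 at 0 h were not called (adjusted p = 0.0546 and 0.0533), nor were EGR3, NR4A1, and NR4A2 in MB468res-R8 from 0 h to 2 h (adjusted p = 0.212, 0.317, and 0.254). Without the low-count filter NR4A3 in MB468res-R8 at 2 h went from an adjusted p of 0.448 to 3.00e-26 at an almost equal log2 fold change of 0.59, and the cause was not tested. No label says that the replicate numbers pair the libraries. Of the 6 libraries in each comparison, 2 correlated best with their own number, except 4 in MB468res-R8 from 0 h to 2 h, where the mean correlation was 0.277 and the pairs ran from -0.0294 to 0.466. With the replicate block, 8, 7, 9, 7, and 7 members were called in the 5 tested comparisons, EGR4 in MB468res-R8 among them (adjusted p = 0.0467), and no other member's call changed. The block called 8172, 7799, 2345, 615, and 719 of all genes. The lowest members at 12 h rest on 7 to 23 counts, and EGR4 in MB468res-R8 went from -4.58 to -5.66 on the log2 scale without replicate 3.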
